A study of Mus musculus with 12 samples.

Results

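The Sox genes code for transcription factors that share a DNA-binding domain, the HMG box, named after the sex-determining gene Sry. The members described here are Sox1, Sox2, Sox4, Sox5, Sox6, Sox7, Sox9, Sox11, Sox17 and Sox18, taken by gene symbol. Of these 10 genes, 8 were among the 30399 genes of the table, and Sox1 and Sox2 were not analysed here. Their identifiers in the table are ENSMUSG00000076431 (Sox4), ENSMUSG00000041540 (Sox5), ENSMUSG00000051910 (Sox6), ENSMUSG00000063060 (Sox7), ENSMUSG00000000567 (Sox9), ENSMUSG00000063632 (Sox11), ENSMUSG00000025902 (Sox17) and ENSMUSG00000046470 (Sox18). The samples were 5 normal mouse lungs and 7 mouse tumors, profiled by poly-A RNA sequencing. Titles of tumors 1 and 7 hold a word for trachea. The tumors come from a CRISPR/Cas9 model of lung cancer in which the nuclease was delivered without a virus. The labels give only the tissue of each sample, and no genotype, targeted gene, strain, age or cell of origin. They do not say whether the mice that gave normal lung had received the nuclease. Nor do they say whether samples came from separate mice, so p-values measure the spread between these samples. The titles carry a number that tumors 3 and 4 share (159), as do tumors 5, 6 and 7 (201), leaving 4 distinct numbers among the 7 tumors.

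Sox proteins bind a short motif in the minor groove of DNA through the HMG box and bend the helix, and they usually act together with a partner factor. They are divided into groups by sequence. SoxB1 proteins (Sox1, Sox2, Sox3) maintain neural progenitors, and Sox2 also marks the epithelium of the conducting airways. SoxC proteins (Sox4, Sox11, Sox12) are activators in immature neurons and in many developing organs. SoxD proteins (Sox5, Sox6, Sox13) have no activation domain of their own, and Sox5 and Sox6 act with Sox9 in cartilage. SoxE proteins (Sox8, Sox9, Sox10) act in cartilage, neural crest and glia, and Sox9 marks the tips of the branching lung bud. SoxF proteins (Sox7, Sox17, Sox18) act in the endothelium of blood and lymph vessels.

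The most conserved 75 coding bases of the 8 members lie at the start of the HMG box. They are shown because likeness between members decides whether a read could be counted for the wrong gene. The sequences are from GENCODE M21 transcripts, 5′ to 3′, and capitals mark the 33 bases that are the same in all 8.
Sox4: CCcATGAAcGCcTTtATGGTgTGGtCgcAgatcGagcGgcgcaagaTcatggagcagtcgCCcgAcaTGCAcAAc
Sox11: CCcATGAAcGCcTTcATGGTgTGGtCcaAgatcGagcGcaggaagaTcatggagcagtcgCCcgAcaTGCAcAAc
Sox5: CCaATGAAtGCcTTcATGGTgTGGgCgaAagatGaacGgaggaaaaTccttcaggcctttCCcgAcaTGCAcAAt
Sox6: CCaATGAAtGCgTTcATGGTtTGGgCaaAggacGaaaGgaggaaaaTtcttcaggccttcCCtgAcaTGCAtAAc
Sox9: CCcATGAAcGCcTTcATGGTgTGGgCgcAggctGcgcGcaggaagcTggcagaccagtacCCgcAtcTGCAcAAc
Sox7: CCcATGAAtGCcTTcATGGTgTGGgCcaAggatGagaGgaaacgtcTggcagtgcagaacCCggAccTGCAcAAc
Sox17: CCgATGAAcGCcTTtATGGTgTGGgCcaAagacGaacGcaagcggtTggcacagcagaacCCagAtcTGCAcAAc
Sox18: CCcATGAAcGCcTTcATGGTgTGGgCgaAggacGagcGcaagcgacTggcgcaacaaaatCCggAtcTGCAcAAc

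Within this stretch Sox4 and Sox11 shared 69 of the 75 bases (92%), Sox5 and Sox6 shared 64 (85.3%), and Sox17 and Sox18 shared 63 (84%). Pairs from different groups shared from 46 (61.3%), in Sox6 and Sox9, to 60 (80%), in Sox9 and Sox18. The latter equals Sox7 and Sox17 within SoxF, so this stretch does not set Sox9 apart from SoxF. Over whole annotated transcripts the longest exact run common to any of the 28 member pairs was 48 bases, in Sox4 and Sox11. That is shorter than a read of 150 bases. Use of strand in the counting is not given in the sources used here, so reads from overlapping antisense genes cannot be told apart. In GENCODE M21, 54.6% of the exon bases of Sox4 are shared with the antisense gene Gm26735, 9.25% of those of Sox5 with Sox5os1, and 16.8% of those of Sox17 with Gm37587. Gm26735 and Sox5os1 were not analysed here. Gm37587 averaged 1.63 normalized counts across normal lungs and was listed at 0 in tumors.

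Values are normalized counts, that is, reads assigned to a gene divided by a size factor of the library. Reads assigned to genes numbered 11126432 to 17032234 in normal lungs and 13093843 to 24217633 in tumors. A count of 3 reads equals at most 4.85 normalized counts in a normal lung and 3.57 in a tumor, and every value of the 8 members lay above 3 reads. Marker lists, chosen with earlier results of these data known, were read to describe the samples. They do not test the labels, which give no cell of origin. The summed counts of 10 alveolar epithelial genes ran from 240959 to 360499 in normal lungs and from 553 to 3290 in tumors. Those of 12 neuroendocrine genes ran from 256 to 325 in normal lungs and from 41807 to 153093 in tumors. Genes of the Y chromosome were present in 4 of 5 normal lungs (mean log2 values of 9.18 to 9.43) and in tumor 1 (9.14), and were at 0 to 1.48 in the others, so this level was also tried as a covariate.

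Per kilobase of exon, SoxF genes made up most of the members' summed counts in every normal lung and SoxC genes most of it in every tumor. Sox11 and Sox9 were higher in tumor, Sox7, Sox17 and Sox18 were lower, and Sox4, Sox5 and Sox6 were not called. A gene was called higher or lower where the Benjamini-Hochberg adjusted p of limma, over all 23674 genes tested, was under 0.05 and the log2 fold change reached 1 in size. All 8 members were tested. Of them 2 were called higher and 3 lower, together 5 of 8, where 48.5% of all tested genes were called, 24% higher and 24.5% lower. In 4 members (Sox11, Sox7, Sox17 and Sox18) the groups did not overlap, against 38.4% of all tested genes (20.1% with tumors above and 18.4% with tumors below). The median log2 fold change was 0.24 over the 8 members and 0.04 over all tested genes. With 8 members, this share called is near that of all genes.

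**Figure D1:**
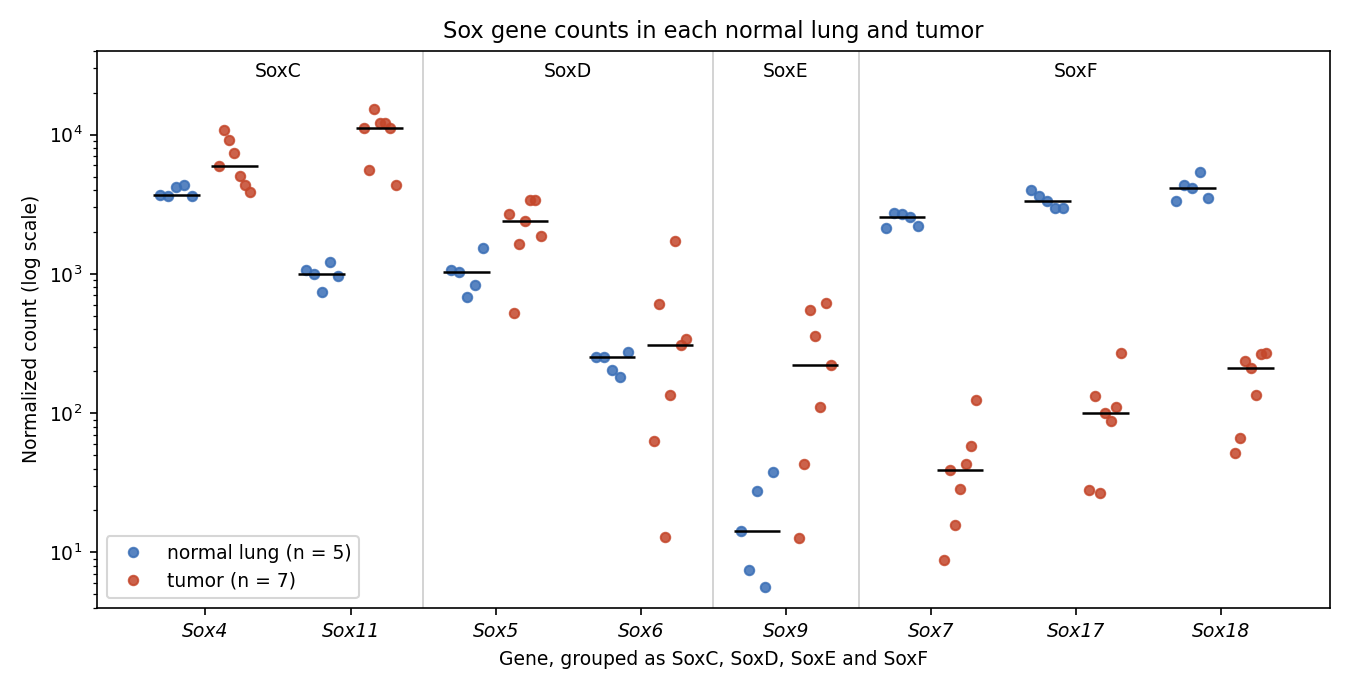
Normalized counts (vertical log axis) of 8 Sox genes in 5 normal lungs (blue) and 7 tumors (red), 1 point per sample, with a bar at each group's median. All tumors lie above all normal lungs for Sox11 and below them for Sox7, Sox17 and Sox18, while Sox6 and Sox9 spread most among the tumors.

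Of the SoxC members, Sox11 rose in every tumor and Sox4 was not called. Normal lungs 1 to 5 held 1065, 999, 738, 1220 and 973 normalized counts of Sox11, which acts in developing neurons. Tumor values ran from 4349 in tumor 7, with a median of 11143, to 15340 in tumor 3. All tumors were above all normal lungs, and tumors 2 (5593) and 7 were well below the other 5, which were at 11089 or more. The mean was 10.2-fold higher in tumors, and the log2 fold change of 3.26 (SE 0.29, limma adjusted p = 5.23e-07) kept its call in all 23 alternatives, from 3.14 to 3.55.

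Sox4, the other SoxC member, is widely expressed in developing and adult tissues. It was already abundant in normal lungs 1 to 5, at 3708, 3633, 4181, 4379 and 3596 normalized counts. The tumor counts extended from 3902 in tumor 7, with a median of 5971, to 10799 in tumor 2. The groups overlapped, since tumors 6 (4313) and 7 lay within the normal lung range. The log2 fold change of 0.68 (SE 0.24, 95% interval 0.17 to 1.19) had an adjusted p of 0.0226 in limma but was short of the fold limit, and it did not reach that limit in any of the 23 alternatives. The order of the tumors differed between the SoxC genes, as tumor 2 had the highest Sox4 and the second lowest Sox11 count.

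Sox12, the remaining SoxC gene, is no member by the rule and was read from a list of other Sox genes. Its normalized counts lay between 379 and 616 in the normal lungs and between 1909 and 9486 in the tumors, so the groups did not overlap. This was a log2 fold change of 2.95 (SE 0.32, limma adjusted p = 3.30e-06). Means are given with their SD, over 5 normal lungs and 7 tumors. Like Sox4, Sox12 was highest in tumor 2 and lowest in tumor 7.

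SoxC genes are known for switching on neuronal genes, and a list of 11 genes of neuronal differentiation was read from the same fit. Of the 10 that the table held, 6 were called higher and 1 lower, where 24% of all tested genes were called higher and 24.5% lower. The median log2 fold change was 2.89, against 0.04 over all tested genes. Map2, a microtubule protein of dendrites, averaged 296 ± 20.2 normalized counts across normal lungs against 5502 ± 2009 across tumors. Stmn1, a regulator of microtubule turnover, had 355 ± 93.4 and 4329 ± 1370. Mapt, the tau protein of axons, was not called at 0.58 (SE 0.23, limma adjusted p = 0.0466). Tead2, a factor of the Hippo pathway, was the gene called lower, from 387 ± 43.8 to 66.1 ± 48.9. Among 12 neuroendocrine genes, all 12 were called higher, beside the same 24% of all tested genes.

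All 3 SoxF genes fell, and each was lower in every tumor than in any normal lung. Of Sox17, needed for arterial endothelium, normal lungs 1 to 5 held 4034, 3651, 3345, 2986 and 2986 normalized counts. The tumors held from 26.8 in tumor 3, with a median of 101, to 268 in tumor 7. The lowest normal lung was above the highest tumor by a wide margin. Its log2 fold change of -5.33 (SE 0.48) had a limma adjusted p of 6.43e-07, and the mean was 31.6-fold higher in normal lung than in tumors.

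For Sox18, a regulator of lymphatic and blood vessel development, normal lungs 1 to 5 gave 3332, 4334, 4167, 5356 and 3526 normalized counts. Tumors gave from 51.9 in tumor 1, with a median of 209, to 268 in tumor 7. Its groups did not overlap, and the log2 fold change of -4.76 (SE 0.40) had a limma adjusted p of 3.45e-07. For Sox7, the remaining SoxF gene, the same lungs gave 2151, 2742, 2705, 2562 and 2192 normalized counts, and tumors from 8.86 in tumor 1, with a median of 39.3, to 124 in tumor 7. Sox7 had the largest log2 fold change of the 8 members, -6.13 (SE 0.49, limma adjusted p = 1.96e-07). All 3 SoxF genes kept their calls in all 23 alternatives, between -6.94 and -5.51 for Sox7, -5.94 and -4.71 for Sox17, and -5.32 and -4.51 for Sox18.

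Tumor 7 had the highest count of each SoxF gene among the tumors. It also had the highest summed counts among the tumors of the endothelial list (14685), of 7 leukocyte genes (39077) and of 8 genes of lung mesenchyme (28768), and it had the lowest Sox11 and Sox4 counts. The part of other tissue in these values was not tested. Without tumor 7 the log2 fold changes were -6.44 for Sox7, -5.62 for Sox17 and -4.90 for Sox18.

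Endothelial genes fell together with the SoxF genes. Of 20 endothelial genes 0 were called higher and 18 lower, where 24% of all tested genes were called higher and 24.5% lower. The median log2 fold change was -3.50, against 0.04 over all tested genes. Their summed count ran from 95396 to 112008 in normal lungs and from 7226 to 14685 in tumors, and no endothelial gene of the list was at 0 in all tumors. Cdh5, the adhesion molecule of endothelial junctions, fell from 15459 ± 2830 to 483 ± 294 normalized counts. Pecam1, an adhesion receptor of endothelium and platelets, fell from 16912 ± 1097 to 1039 ± 724. Vwf, the clotting factor stored by endothelium, fell less, from 5837 ± 2660 to 2142 ± 2085 (-1.79, SE 0.53, limma adjusted p = 0.00944). In tissue RNA, fewer endothelial cells and less SoxF RNA per endothelial cell cannot be told apart.

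How SoxF levels compared with endothelial genes of the same library depended on the genes chosen. Against the endothelial sum the 3 SoxF genes together came to 7.77% to 11.2% in normal lungs and 0.774% to 4.51% in tumors. In tumors that sum was carried in large part by Vwf and by Fli1 and Dll4, which were not called. These 3 genes made up a median of 8.48% of the sum in normal lungs and of 46.6% in tumors, from 22.0% in tumor 7 to 81.9% in tumor 1. Sox17 stood at 15.0% to 26.1% of the Cdh5 count in normal lungs and at 14.4% to 27.4% in tumors, so these ranges nearly coincided. Sox18 ranged from 17.7% to 42.3% of Cdh5 in normal lungs and from 9.57% to 127.8% in tumors, with tumor 3 highest. Sox7 had a median of 18.8% of Cdh5 in normal lungs and of 8.28% in tumors, and its ranges overlapped. Against Pecam1, Sox7 and Sox17 were lower in every tumor than in any normal lung, and Sox18 overlapped. Of the 20 endothelial genes, Cldn5, a tight junction protein (-7.24, SE 0.60), had a more negative log2 fold change than Sox7 and Sox17, and 6 had one more negative than Sox18. The ratios to Cdh5 and Pecam1 were chosen after the values were seen, and they are a description with no test. Cdh5 was also the gene nearest to Sox17 in profile over these same 12 samples. The like ranges of Sox17 to Cdh5 are therefore another form of that likeness.

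**Figure D2:**
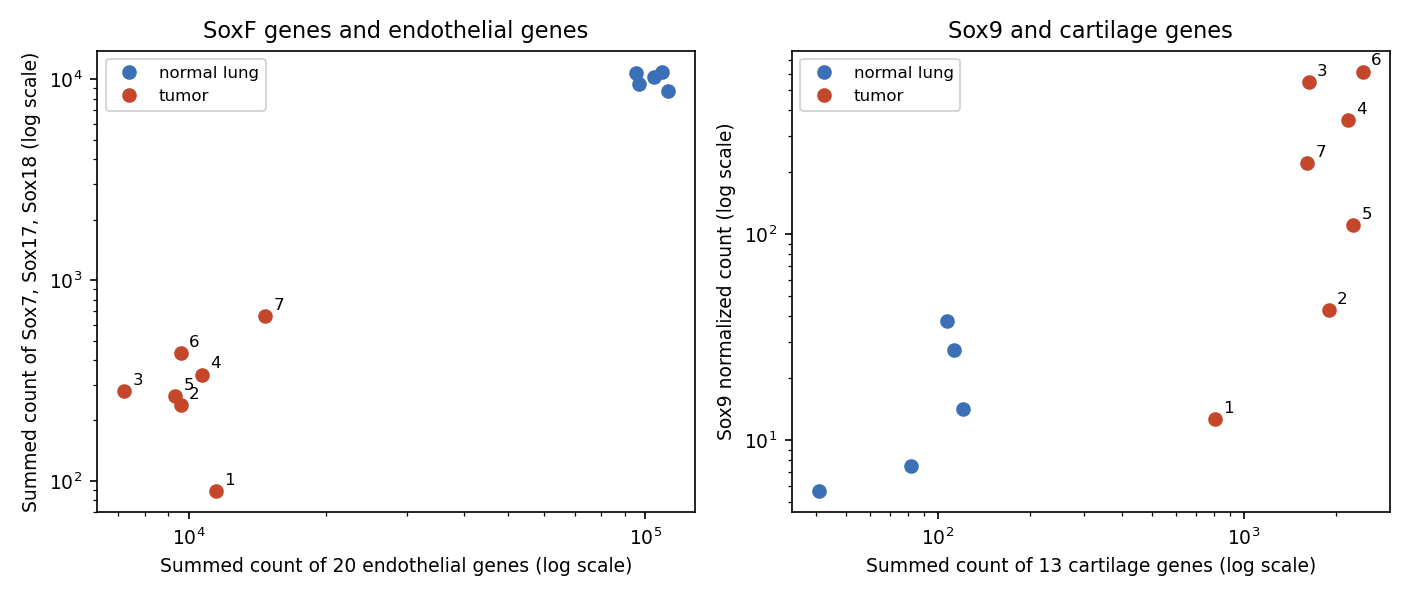
Left, summed normalized count of Sox7, Sox17 and Sox18 against that of 20 endothelial genes; right, Sox9 against the sum of 13 cartilage genes; all axes are log scales, 1 point per sample, with tumor numbers beside the red points. Normal lungs (blue) lie apart at SoxF sums of 8704 or more against at most 660 in tumors, and tumor 1 is the tumor lowest in both plotted Sox measures.

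The SoxD members did not move as a group. Sox5 acts in the differentiation of neurons and cartilage, and normal lungs 1 to 5 held 1067, 1036, 685, 835 and 1539 normalized counts of it. Tumors held from 524 in tumor 2, with a median of 2389, to 3402 in tumor 6. Tumor 2 was below every normal lung and the other 6 tumors were above every normal lung. The log2 fold change of 0.99 (SE 0.40, limma adjusted p = 0.0447) was just short of the fold limit. Sox5 was called higher in 7 of 23 alternatives. Among them were edgeR (1.29) and DESeq2 (1.23), which called 44.5% and 44.1% of all tested genes. Others were limma without tumor 2 (1.31) or without normal lung 5 (1.15). In further alternatives the fold limit was passed but the adjusted p was not under 0.05. An example is limma without tumor 3 (1.04, limma adjusted p = 0.0511).

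Sox6 is the closest relative of Sox5, and normal lungs 1 to 5 gave 253, 253, 205, 182 and 274 normalized counts of it. Its tumor counts went from 12.9 in tumor 3, with a median of 309, to 1721 in tumor 5. The tumors thus lay on both sides of normal lung, with a 133-fold span between the highest and the lowest, while all 5 normal lungs lay between 182 and 274. The log2 fold change of -0.20 (SE 0.90, 95% interval -2.14 to 1.73, limma adjusted p = 0.858) did not pass, and edgeR, which left out tumor 3, gave the opposite sign at 1.25 (adjusted p = 0.123). Tumors that share a title number differed in Sox6. Tumor 4 had 136 where tumor 3 had 12.9, and tumors 5, 6 and 7 had 1721, 309 and 340.

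Sox13, the SoxD gene outside the membership rule, fell. It averaged 2579 ± 468 normalized counts across normal lungs against 274 ± 168 across tumors, with no overlap, and had a log2 fold change of -3.45 (SE 0.38, limma adjusted p = 4.23e-06). The 3 SoxD genes therefore comprised 1 called lower and 2 not called.

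Sox9, the SoxE member, rose from a low level but not in every tumor. Normal lungs 1 to 5 held 14.2, 7.53, 27.5, 5.64 and 37.9 normalized counts. The tumors went from 12.7 in tumor 1, with a median of 222, to 617 in tumor 6. Tumor 1 lay within the normal lung range, tumor 2 (42.9) just above it, and tumors 3 to 7 at 111 or more. The mean was 14.7-fold higher in tumors, and the log2 fold change came to 3.27 (SE 0.89, 95% interval 1.36 to 5.18, limma adjusted p = 0.00595). The call was lost in 1 of 23 alternatives, with Y-linked expression as covariate (1.70, limma adjusted p = 0.176); tumor 1 is the one tumor with a Y-linked level like that of the 4 normal lungs.

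Cartilage genes, which Sox9 controls together with Sox5 and Sox6 in the growing skeleton, were higher in tumors. Of 13 listed genes 9 were called higher and 0 lower, where 24% of all tested genes were called higher and 24.5% lower. The median log2 fold change was 2.58, against 0.04 over all tested genes. Their summed count was low throughout, at 40.9 to 121 in normal lungs and 807 to 2444 in tumors. Tumor 1 was lowest and tumor 6 highest, as for Sox9. Between these ends the order differed, as tumor 5 had a sum of 2279 beside a Sox9 count of 111. Tumor 3 had a sum of 1628 beside a Sox9 count of 551. Col9a3, a chain of the collagen that coats cartilage fibrils, averaged 22.5 ± 6.25 normalized counts across normal lungs against 357 ± 180 across tumors. Col11a1, a chain of a collagen found in cartilage fibrils and in other matrices, had 0.690 ± 1.54 and 597 ± 471. Col11a1 alone gave 1226 of the cartilage sum in tumor 6, 125 in tumor 2 and 10.8 in tumor 1. That tumor 6 had the highest sum therefore rests on this 1 gene. Matn1, a matrix protein of cartilage, was not called at 0.35 (SE 0.66, limma adjusted p = 0.666). It lay at or under 3 reads in 10 of the 12 samples, so its change cannot be read. Tumor 2 had a cartilage sum within the range of the other tumors beside a Sox9 count of 42.9.

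Other genes of the distal lung bud tip, where Sox9 is a marker, were mostly called lower. Of 7 such genes 1 was called higher and 4 lower, with a median log2 fold change of -1.64. Over all tested genes 24% were called higher and 24.5% lower. Etv5, a factor downstream of fibroblast growth factor signals, fell from 2941 ± 435 to 175 ± 108 normalized counts, whereas its relative Etv4 rose from 14.5 ± 9.73 to 121 ± 59.4. Nkx2-1, the lineage factor of lung epithelium, was not called, at 8160 ± 696 and 11784 ± 3511. The remaining SoxE genes were low in both groups and not called. Sox8 averaged 17.1 ± 9.35 normalized counts across normal lungs against 16.2 ± 19.5 across tumors, and Sox10, the factor of Schwann cells and melanocytes, had 12.2 ± 13.5 and 15.7 ± 14.7.

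**Figure D3:**
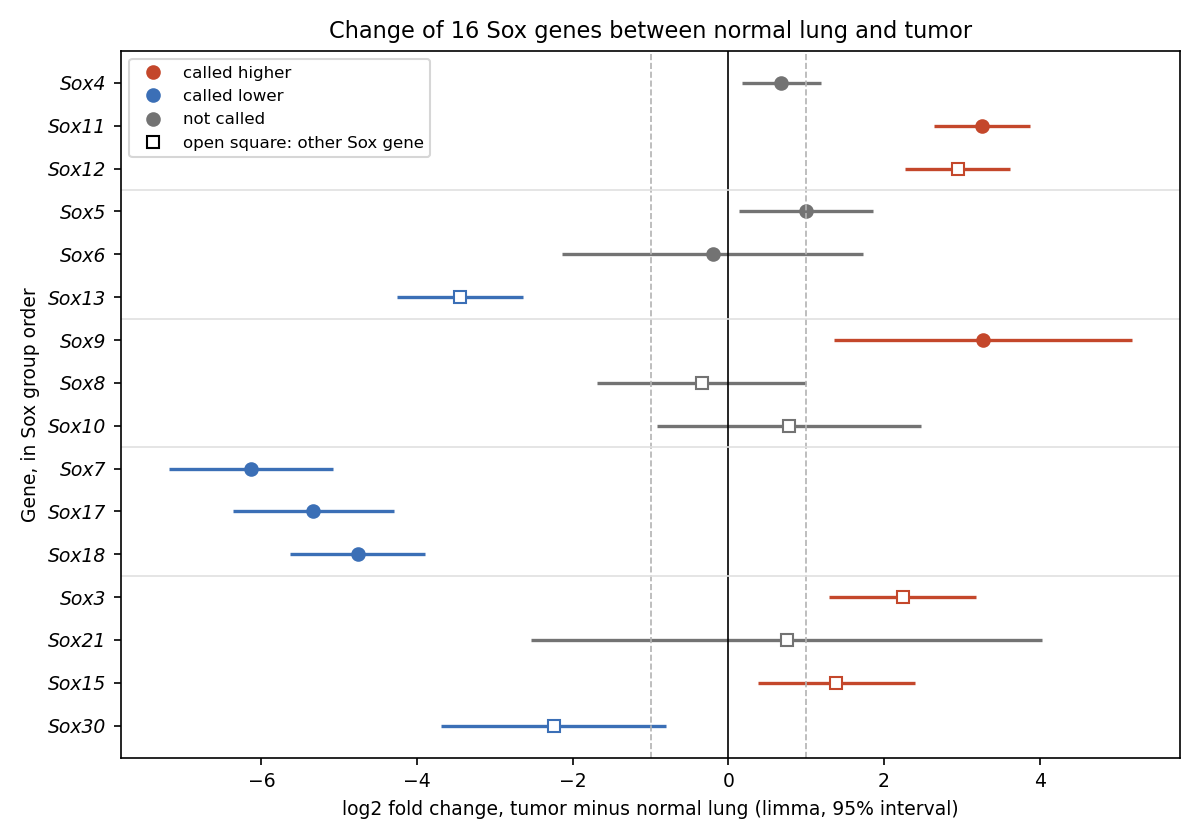
Log2 fold change between tumor and normal lung (horizontal axis, on log2(normalized count + 1)) for the 8 members (filled circles) and 8 other Sox genes (open squares), with 95% limma intervals, ordered by Sox group; dashed lines mark the fold limit of 1. The SoxF intervals all lie below -3, that of Sox11 above 2, and those of Sox6 and Sox21 are the widest. Sox3, at 0 in all normal lungs, is drawn as fitted with the pseudocount of 1, which is no bound on its change.

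Outside these groups, 4 more Sox genes were listed. Of the 8 other Sox genes in the table, 3 were called higher (Sox12, Sox3 and Sox15) and 2 lower (Sox13 and Sox30). Over all tested genes 48.5% were called, 24% higher and 24.5% lower. With 8 genes, the share called is near that of all genes. Sox21, a repressor related to the SoxB1 proteins, had 3194 normalized counts in tumor 1 and at most 101 in any other tumor, with 3.23 to 32.3 in normal lungs. Sox3 was listed at 0 in all normal lungs and had 0.991 to 8.90 normalized counts in tumors, of which 3 values were at or under 3 reads, so no fold is given. Sox15 lay between 2.58 and 10.8 in normal lungs and between 3.97 and 22.2 in tumors, and its call was lost in 4 of 23 alternatives. Sox30, needed for sperm formation, averaged 19.2 ± 8.96 across normal lungs against 5.44 ± 7.67 across tumors, and its call was lost in edgeR (-1.49) and DESeq2 (-1.59). Sox14 and Sry were not analysed here.

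A list of genes of neural progenitors, the setting of the SoxB1 proteins, was read as well. Of 11 genes tested 8 were called higher and 2 lower, where 24% of all tested genes were called higher and 24.5% lower. Lhx2, a LIM homeodomain factor of the forebrain and eye, averaged 4.03 ± 7.70 normalized counts across normal lungs against 1377 ± 623 across tumors. Msi1, an RNA-binding protein of neural stem cells, had 16.4 ± 6.54 and 2194 ± 682. Nes, the intermediate filament of neural progenitors and also of vessels, went the other way, from 3985 ± 781 to 341 ± 365, as did Prom1, a surface protein of stem cells and lung epithelium, from 413 to 137 on average.

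To compare levels between genes, counts were divided by the exon length of each gene in kilobases. Sox18 was the highest member in every normal lung, at 2057 to 3306 normalized counts per kilobase, and the lowest of these was above the highest value of any other member. Sox4 (813 ± 74.4, SD, n = 5), Sox7 (749 ± 85.2) and Sox17 (713 ± 94.4) came next, and their ranges overlapped. They were followed by Sox11 (120 ± 21.0) and Sox5 (71.8 ± 22.5), which also overlapped, and then by Sox6 (15.7 ± 2.57) and Sox9 (4.49 ± 3.34). In tumors Sox4 (1384 ± 539, n = 7) and Sox11 (1232 ± 467) were the highest members and overlapped. Sox5 (158 ± 71.6), Sox18 (109 ± 56.5), Sox9 (66.1 ± 58.6) and Sox6 (30.7 ± 40.0) overlapped one another, and their ranges also reached into those of Sox17 (22.6 ± 17.1) and Sox7 (13.7 ± 11.6). The long exon unions of Sox5 (14376 bases) and Sox6 (14832 bases) pool several isoforms and lower their values per kilobase.

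As shares of the summed counts per kilobase, SoxF genes took 77.6% to 81.5% in normal lungs and 1.44% to 14.4% in tumors. Sox4 and Sox11 took 16.8% to 19.8% in normal lungs and 74.1% to 94.5% in tumors. Within SoxC, Sox11 stood at 0.102 to 0.166 of the Sox4 level per kilobase in normal lungs and at 0.299 to 1.48 in tumors. Tumors 1, 5 and 6 had more Sox11 than Sox4 on this scale, and tumors 2, 3, 4 and 7 had less. Sox5 and Sox6 together took a median of 1.70% and at most 2.81% in normal lungs, and a median of 6.83% and at most 11.8%, in tumor 5, in tumors. Sox9 took up to 5.24%, in tumor 6.

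**Figure D4:**
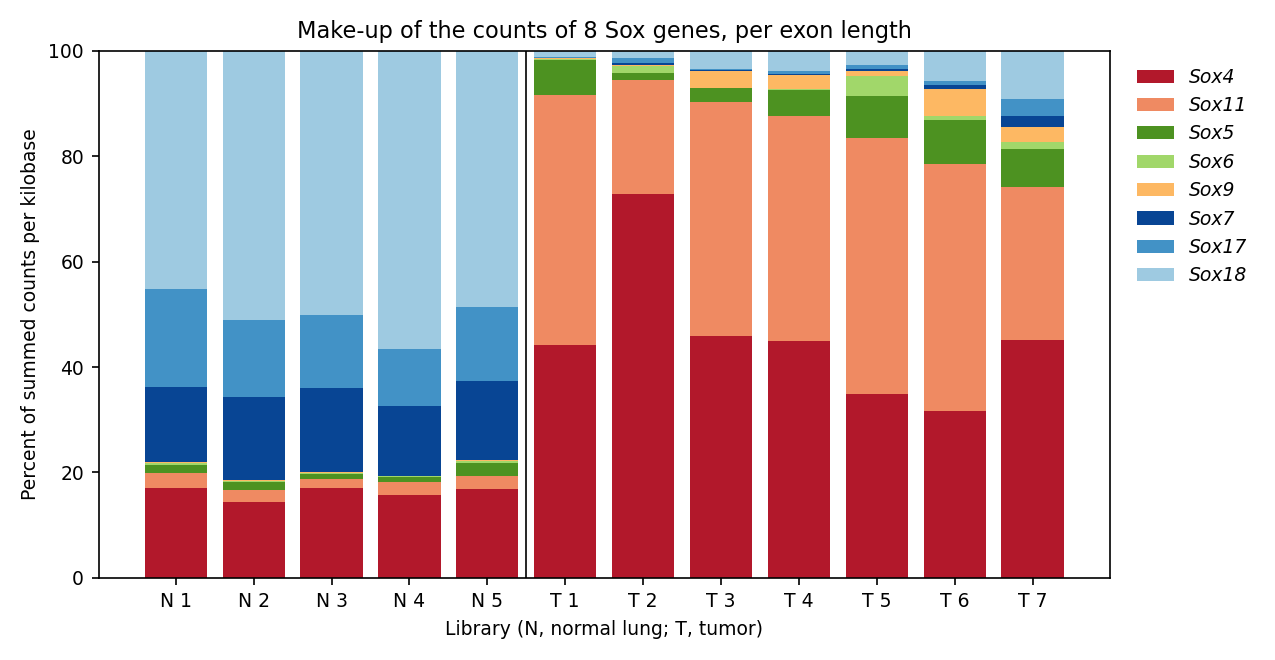
Stacked bars of the share of each of 8 Sox genes in their summed normalized counts per kilobase of exon (vertical axis, percent) in normal lungs 1 to 5 (N) and tumors 1 to 7 (T). The blue SoxF shares fill 77.6% or more of each normal lung bar, and the red SoxC shares fill 74.1% or more of each tumor bar.

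The tumor titles hold a Spanish word for trachea in tumors 1 and 7 and for lung in tumors 3, 4, 5 and 6, which allows a comparison of 2 against 4. In limma 0 of 23282 genes passed (0%), while 2086 had an unadjusted p under 0.05, edgeR called 0 and DESeq2 called 284, both without tumor 3. Sox9 had the largest difference among the members, with mean log2 values of 5.79 in trachea-titled and 8.42 in lung-titled tumors, a difference of -2.63 (SE 1.15, limma adjusted p = 0.564). Sox11 had a difference of -0.85 (SE 0.38, adjusted p = 0.572). Neither passed the test, and each leaned on 1 trachea-titled tumor. Sox9 was at -0.62 without tumor 1 and at -4.65 without tumor 7. Sox11 was at -0.17 without tumor 7 and at -1.53 without tumor 1. The title number 201 is shared by tumor 7 and by tumors 5 and 6, and no other number holds both site words. With title number as a block, the site difference therefore rests on tumor 7 against tumors 5 and 6. For Sox9 it was -0.24. Sox21 had mean log2 values of 9.15 and 2.89, a difference of 6.27 (SE 1.72, limma adjusted p = 0.435).

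The genes whose profile over the 12 samples was most like that of each member were found by the root mean square difference of log2 values centred on each gene's mean, over 16517 other genes with a mean log2 value of at least 4. Closest to Sox17 were Cdh5 (0.29 log2 units), Cyyr1 (0.32) and Ushbp1 (0.34). Closest to Sox7 were Myct1 (0.39), Thbd (0.43) and Adgrf5 (0.48), and closest to Sox18 were Hs3st1 (0.36), Etv5 (0.45) and Dram1 (0.48). Cdh5 and Thbd, the thrombin receptor of vessel walls, are endothelial genes. Closest to Sox11 was Tigd3 (0.25), with at most 63.5 normalized counts in normal lungs and at least 320 in tumors. Closest to Sox4 was Ctbp1 (0.12), a corepressor, and closest to Sox5 was Itgb3bp (0.24).

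The nearest genes to Sox6 and Sox9 were farther off. As a share of the member's own spread about its mean, the nearest gene lay at 58.5% for Sox6 and 33.2% for Sox9, against 28.1% for Sox5, 23.7% for Sox4 and 10.6% to 15.1% for Sox7, Sox11, Sox17 and Sox18. The nearest gene to Sox6 was Hoxb3os at 0.94, and Hoxb3 stood at 0.98. For Sox9 it was the maternally expressed RNA Meg3 at 0.75, followed by Gm27000 and by Stc1, a secreted hormone, at 0.80. These likenesses over 12 samples include the difference between tissues as well as differences among tumors.

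**Figure D5:**
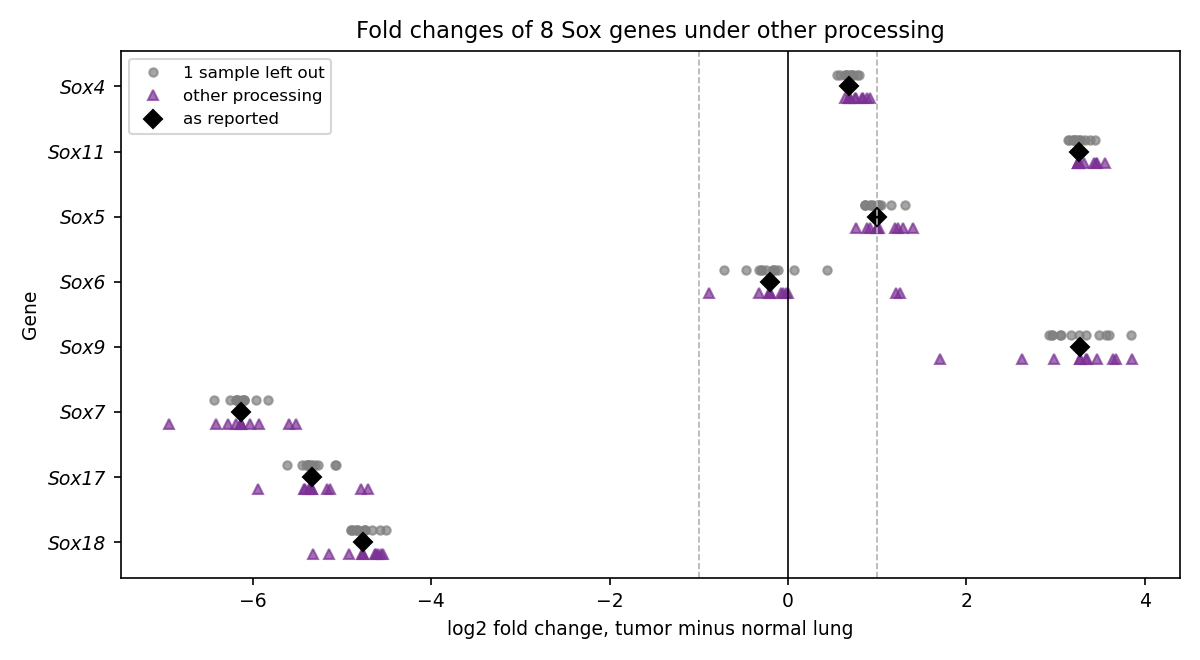
Log2 fold change of each member (horizontal axis) as reported (diamonds), with 1 sample left out (grey circles) and under other processing (purple triangles); dashed lines mark the fold limit of 1. Sox7, Sox17, Sox18 and Sox11 stay clear of the limit in all 23 alternatives, Sox5 straddles it, and Sox6 crosses 0.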

How the data were processed

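The authors deposited 1 table of gene read counts divided by a size factor per library, a normalized signal with 1 column for each of 12 samples. Per the submitters' processing notes, featureCounts, DESeq2 and the build GRCm39 were used. The aligner, annotation and strand setting are not given in the sources used here. Within a tolerance of 0.05 reads, 100% of values were whole multiples of the column's step, which gave the depth. Whole reads entered count tests in 11 samples, and tumor 3, whose step is close to 1, was left out of them. In the 25 same-group pairs of these 11 samples the counts differed by more than sampling noise, with a chi-square of at least 18.4 for each degree of freedom.

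Symbols came from a reference table of gene names, which held 29982 of 30399 identifiers. Exon lengths and transcripts are from GENCODE M21 (GRCm38), and no coordinates are given because the builds differ. Tests were run on log2(value + 1) with limma 3.58.1 (R 4.3.3, lmFit and eBayes with trend) for genes whose mean reached 1. This scale understates the change of low genes. edgeR 4.0.16 and DESeq2 1.42.0 were alternatives. The script was tested on simulated data. Samples were grouped by the tissue label, and tumor and normal lung numbers follow the order of listing. The members and lists were chosen with earlier results of these data known. From each list, text names come from the 4 genes with the highest mean and any called against most of the list. Outside this rule, Matn1 was added after its value was seen, and Cldn5, Fli1 and Dll4 were named for their values. Likeness used the 3 nearest genes. Floors of 3 reads cover counting error only.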

Additional observations from a re-analysis of the deposited data

Results flagged for a closer look

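In 31 groups of values, 1 per Sox gene and tissue, the highest or lowest sample was set against the spread of its group. In 3 of them it stood apart from the other samples beyond Dixon's 95% critical value; chance alone would give about 1.55. Sox5 in tumor 2 was the lowest tumor value, at a log2 value of 9.04 against 10.67 to 11.73 in the other tumors. Sox8 in tumor 7 was the highest, at 5.92 against 2.44 to 3.94. Sox15 in tumor 3 was the lowest, at 2.31 against 4.10 to 4.54, which rests on 3.97 normalized counts.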

How the results depend on the processing

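All 8 members were refitted under 23 alternatives, and 25 of 33 counts of calls stayed within 1.5 times in all of them. Members called lower stayed at 3, and members called higher were 2 or 3. Where there were 3, the third was Sox5. With the Y-linked covariate the 2 called higher were Sox11 and Sox5, and Sox9 was not called. Over all genes, calls ran from 4318 to 6507 higher and from 4515 to 6285 lower. With equal column totals the median log2 fold change of all genes shifted by 0.19. In edgeR and DESeq2, other Sox genes called lower numbered 1 each, glial genes called higher 2 and 2, multiciliated genes called higher 1 and 1, mesenchymal genes called lower 2 and 2, and leukocyte genes called lower 3 and 3. Neural progenitor genes called lower numbered 1 in edgeR and 1 with the Y-linked covariate, which also left 0 airway genes called higher. Multiciliated genes called higher numbered 1 with quantile normalization, equal totals or that covariate, and 0 to 1 when 1 sample was left out. The cause was not tested.

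Directions turned for uncalled genes. Sox6 was at 1.25 in edgeR, 1.21 in DESeq2 and 0.0031 with equal totals, and from -0.72 to 0.44 with 1 sample left out. Sox8 was at 0.20 in edgeR and 0.10 in DESeq2, and Sox10 at -0.32 with the covariate. Sox21 was at -1.06 without the trachea-titled tumors and from -0.42 to 1.52 with 1 sample left out, the lowest without tumor 1, while edgeR called it higher (5.14). Of the titled sites, DESeq2 called 284 genes, and leaving out 1 tumor gave 0 to 290, the highest without tumor 7. Without tumor 1 or tumor 7 the trachea-titled side is 1 tumor, assumed to vary like the lung-titled tumors, so the 290 compare tumor 1 with 4 tumors. Leaving out 1 tumor gave site differences of -0.46 to 0.065 for Sox5, -1.50 to 0.94 for Sox6 and -1.77 to 1.88 for Sox7. The ranges were -1.33 to 1.89 for Sox17 and -1.96 to 0.39 for Sox18. Those of Sox9 (-4.65 to -0.62) and Sox11 (-1.53 to -0.17) kept their sign. A replicate block on title number for the sites, added after seeing the data, called 0 genes and gave 0.50 for Sox18. No paired analysis was possible because the labels give tumors and normal lungs no shared replicate numbers. The title number as a random effect (consensus correlation 0.30) changed no call of a member.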

Other observations

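Relatives of the Sox proteins that also bind DNA through an HMG box were read too. Of 7 such genes 1 was called higher and 3 lower, with a median log2 fold change of 0.23. Over all tested genes 48.5% were called, 24% higher and 24.5% lower. Cic, a repressor of growth factor response genes, averaged 2620 ± 1055 normalized counts across normal lungs (SD, n = 5) and rose to 6479 ± 996 across tumors (SD, n = 7). Tcf7l2, a factor of the Wnt pathway, fell from 1179 ± 330 to 334 ± 439. Tcf7l1 (821 ± 223 and 1265 ± 472) and Bbx (974 ± 123 and 1306 ± 343) were not called.

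Lists for cells in which Sox genes are used, or that lung tissue holds, were read in the same fit. In it 24% of all tested genes were called higher and 24.5% lower. Of 8 airway basal and secretory genes 1 was called higher and 3 lower. Scgb1a1, the main secreted protein of club cells, fell from 126212 ± 51598 to 239 ± 250 normalized counts, and Ngfr, a receptor of basal cells and nerve, rose from a mean of 43.1 to 135. Of 9 multiciliated cell genes 0 were called higher and 5 lower, and Foxj1, the ciliation factor, fell from 3291 ± 436 to 370 ± 225. Of 8 genes of Schwann cells and other glia 1 was called higher and 2 lower, with Mbp, a myelin protein, at 2320 ± 209 and 3681 ± 1168 (not called). Of 8 mesenchymal genes tested 0 were called higher and 4 lower, and of 7 leukocyte genes 0 higher and 7 lower. All 10 alveolar epithelial genes were called lower.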
